A study of Mus musculus with 10 samples.

Results

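The proteasome subunit genes of the mouse were taken as the protein-coding genes whose symbol is Psm followed by a letter from a to g and a number. This naming rule, which uses no measured value, found 49 of the 55536 genes in the count table, and all 49 passed the filter on low counts. They comprise 19 core subunits, 23 regulatory genes and 7 assembly chaperones, on 16 chromosomes.

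The proteasome is the main protease of the cytosol and nucleus and degrades proteins that carry ubiquitin chains. Its barrel-shaped core is built from rings of alpha subunits, which gate the entrance, and rings of beta subunits, of which some cut peptide bonds. A regulatory cap of ATPases and non-ATPase subunits binds the ubiquitin chain, removes it and threads the unfolded protein into the core, while other activators and an inhibitor can take the place of the cap. In meiotic germ cells the proteasome is known, mainly from work on mouse testis, to act on chromosome axes and to use germ cell forms of its parts.

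RNA was sequenced from female germ cells (labelled oocytes) of mouse fetal ovaries at E16.5, with 5 libraries from Taf4b-heterozygous and 5 from Taf4b-deficient cells. Taf4b encodes a gonad-enriched subunit of the general transcription factor TFIID. The strain label of every library is C57BL/6, and every parent was homozygous for an Oct4-EGFP transgene and heterozygous for the Taf4b-deficiency mutation, so the controls also carry the reporter and 1 mutant allele. GFP-positive cells were sorted after dead cells had been excluded with propidium iodide. The labels give 3 litter dates, with heterozygous libraries 1 and 2 and deficient 1 on the first, heterozygous 3 and 4 and deficient 2 and 3 on the second, and heterozygous 5 and deficient 4 and 5 on the third. The labels do not say whether each library is a different embryo. The p-values here therefore weigh the genotype difference against the scatter of these libraries, and some of that scatter may be technical.

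The libraries held 16707200 to 26983600 counts in genes. Taf4b was at 271, 290.2, 142, 65.7 and 101 CPM (counts scaled to a common library size) in heterozygous libraries 1 to 5, and at 58.2 to 81.7 CPM in the deficient ones. In CPM the library labelled heterozygous 4 therefore lay inside the deficient range, against its label, while in TPM it was at 19.6, just above the deficient range of 15.6 to 18.6. Of 10 oocyte and germ cell markers 9 passed the filter, and the summed level of the 10 was 2715 to 4668 TPM (a level per length, relative to all transcripts). Sycp3, of the meiotic chromosome axis, had the highest mean of them, and Pou5f1, the gene of the reporter, stayed under 1 TPM in every library. Macrophage markers summed to 302 to 655 TPM, and alpha-globin Hba-a1 was at 260.4, 798 and 589.5 CPM in the library labelled heterozygous 4, in heterozygous 5 and in deficient 5, against 24.0 to 102 CPM elsewhere. Heterozygous 3 had the lowest mitochondrial share of counts, 0.854% against 1.52% to 3.34%. In such bulk samples, fewer cells of a type and less RNA per cell cannot be told apart.

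The mRNA level of the proteasome as a whole lay in overlapping ranges in the 2 genotypes. The 49 genes together took 5880, 4950, 6420, 6977 and 7309 TPM in heterozygous libraries 1 to 5 and 4950, 5004, 4541, 5552 and 6283 TPM in deficient libraries 1 to 5. The means were 6307 ± 934 (SD, n = 5) and 5266 ± 673 (SD, n = 5), and heterozygous 1 and 2 lay below deficient 5, the highest deficient library. Within each genotype the sum ranged more widely than the means differed. As a share of all transcripts the genes took 0.495% to 0.731% in heterozygous and 0.454% to 0.628% in deficient libraries.

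**Figure D1:**
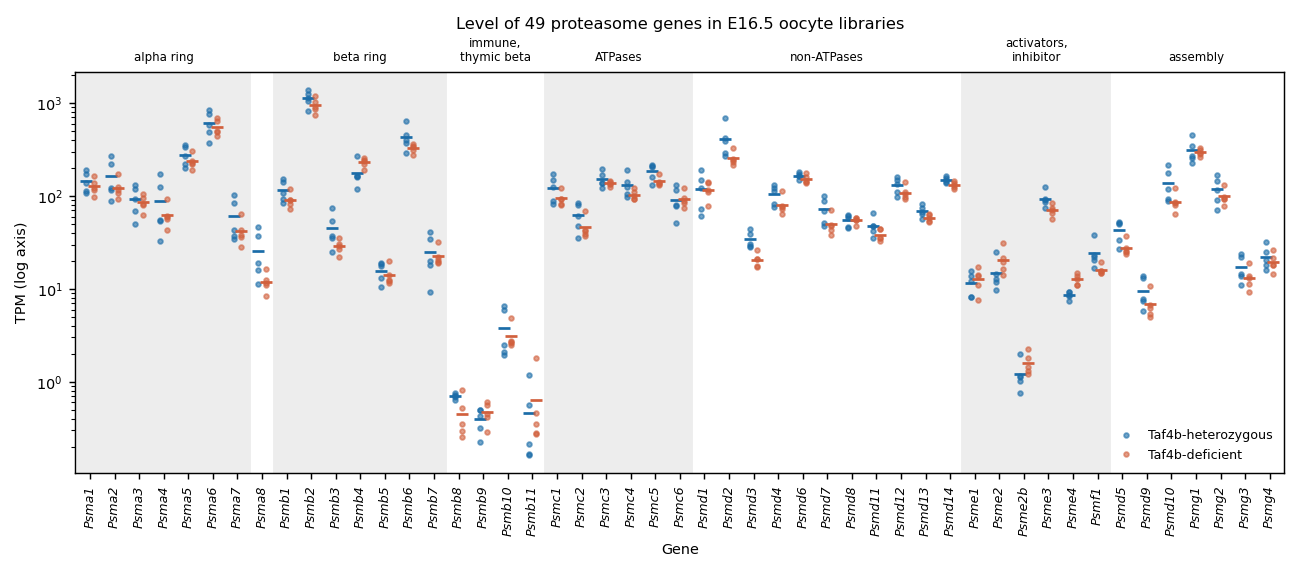
Level of the 49 proteasome genes in TPM on a log axis, by role. Points are single libraries (blue, heterozygous; orange, deficient) and short lines are the means of 5 libraries. Psmb2 is highest, at a mean of 1034 TPM, and Psmb8, Psmb9 and Psmb11 are the 3 genes with means under 1 TPM.

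Subunits that occur in equal numbers in the particle did not have equal mRNA levels. Over all 10 libraries the 14 constitutive core genes had mean levels from 14.9 TPM for Psmb5 to 1034 TPM for Psmb2, a ratio of 69.4. On the other length-scaled measure, CPM per kb of exons, the ratio was 24.7, with Psmb2 highest at 476 and Psmb7 lowest at 19.2. Psmb2 and Psma6, structural subunits of the beta and the alpha ring, had the highest levels in TPM, and Psma6 stood at 583 TPM; in CPM per kb Psmb6 stood between them. The 17 cap genes were more even, with a ratio of 12.1 in TPM between Psmd2 at 334 TPM and Psmd3 at 27.5 TPM. The median level was 119 TPM for constitutive core genes, 108 TPM for cap genes and 35.3 TPM for assembly genes. In CPM per kb these classes lay closer together. There the middle assembly gene, Psmd10, stood at 78.0 and the middle cap gene, Psmc1, at 90.6. The middle constitutive core genes, Psmb5 and Psma1, stood at 105 and 114.

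The level of 3 members depended most on how it was measured. For most members TPM and CPM per kb were in a ratio near the median of 1.21, but Psmb5, Psmg4 and Psme2b had ratios of 0.142, 0.126 and 0.133. On the other side Psmb2, Psma6 and Psma5 had the highest ratios, 2.17, 2.005 and 1.67. Psmb5, the subunit with chymotrypsin-like activity, was 41st of 49 in TPM and 15th in CPM per kb. Psmg4 was 36th in TPM and 7th in CPM per kb. Of the 50-base words of Psmb5 transcripts 54.1%, and of those of Psme2b 69.3%, also occur in transcripts of other genes, while Psmg4 shares none. Psma5, at 50.0%, Psme2, at 28.3%, Psmd9, at 24.9%, and Psmb3 and Psmd2, at 17.8% each, are uncertain for the same reason, and 14 members overlap an exon of another gene.

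Promoter sequence was available for 41 of the 49 members as the 250 bases before the transcript start (RefSeq, GRCm38.p6). Nfe2l1, a transcription factor known for raising proteasome subunits after proteasome inhibition, and Nfe2l2, known from the oxidative stress response, bind the antioxidant response element, searched as TGACNNNGC on both strands. It occurred in 5 of 41 members (12.2%) against 11.5% of the 26994 genes with a promoter. The 5 sites are shown with up to 10 bases on each side because they are the members' only matches to this element, with the match in capitals on the strand of the gene.
Psmb5 (chr14:54618024-54618052, minus strand): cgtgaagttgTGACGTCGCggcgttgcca
Psmb6 (chr11:70525338-70525356, plus strand): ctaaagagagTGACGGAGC
Psmc6 (chr14:45329587-45329615, plus strand): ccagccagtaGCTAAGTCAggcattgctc
Psmd12 (chr11:107479278-107479299, plus strand): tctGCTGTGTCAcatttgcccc
Psmd9 (chr5:123228149-123228177, plus strand): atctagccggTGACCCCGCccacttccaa
In Psmc6 and Psmd12 the element lies in the reverse orientation. The CCAAT box, the site of the factor NF-Y, occurred in 34.1% of members and 37.5% of genes, and in 8 of the 15 core members with a promoter. The GC box GGGCGG occurred in 53.7% against 35.3%, and the site of nuclear respiratory factor 1 in 14.6% against 4.2%, namely in Psma2, Psma3, Psma4, Psmc4, Psmc5 and Psmd14. TATAAA occurred in 9.8% against 14.3%. All motifs were searched on both strands, and a match is a description of the letters only.

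The comparison of genotypes addressed which genes depend on Taf4b in fetal oocytes. No gene of the 19244 tested passed an adjusted p of 0.05 with edgeR (0%), and so no proteasome gene did. The smallest adjusted p was 0.0871 over all genes and 0.130 over the members. On simulated counts this test called only 22% of 100 genes changed 2-fold. The members' fitted differences were all under 2-fold, with log2 fold changes from -0.94 to 0.68. At an unadjusted p under 0.05 edgeR's quasi-likelihood test gave 6 members (12.2%) against 16.6% of all genes, with 1 higher (background 7.45%) and 5 lower in deficient cells (background 9.13%); over all genes there were 3190. The authors' deposited table gave an adjusted p under 0.05 to Psme4, higher in deficient cells (3.2% of its genes), and to Psma8 and Psmd3, lower (3.36%), which is 3 of 49 members against 6.55% of the genes with an adjusted p there. DESeq2, with 3.02% of genes called, and limma voom, with 2.65%, each called Psme4 and Psmd3. edgeR without heterozygous 1, with 3.07% of genes called, called Psma8 and Psmb4.

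The log2 fold change, deficient over heterozygous, was below 0 for 36 members and above 0 for 13, with a median of -0.14, against 51.1% below 0 and a median of -0.02 over all genes. The median was -0.13 for the core, -0.16 for regulatory genes and -0.24 for assembly genes. These medians moved when single libraries were left out. Without heterozygous 3 the regulatory median was 0.00, and without heterozygous 5 the core median was -0.02. Without the libraries of the second litter date the median of all members was -0.04.

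**Figure D2:**
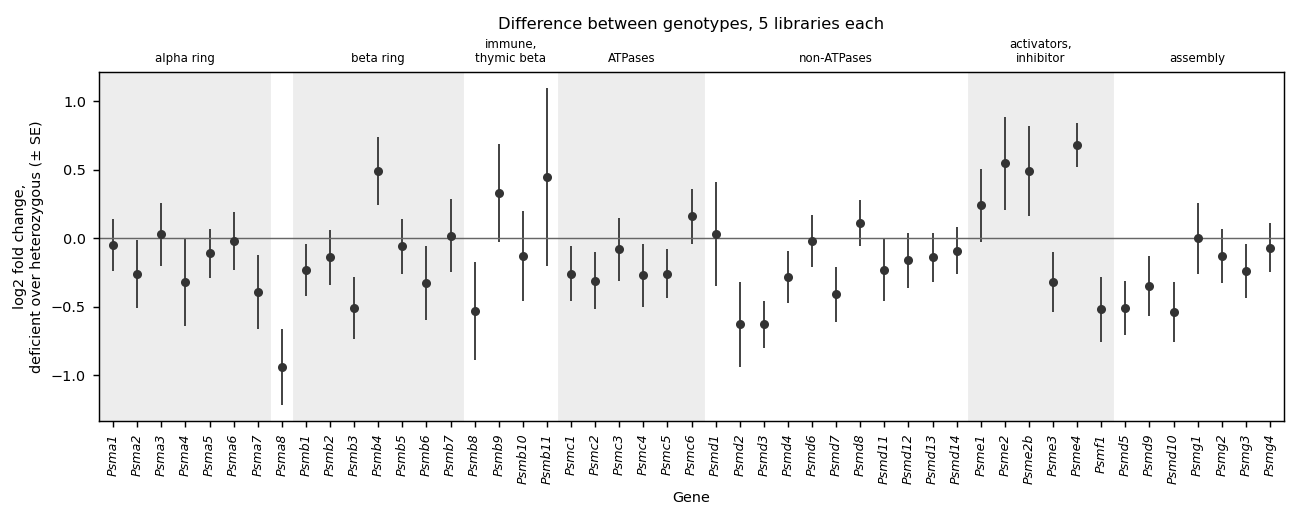
Fitted log2 fold change, deficient over heterozygous, of each member with its standard error (5 libraries per genotype), by role. Psma8 is lowest at -0.94 and Psme4 highest at 0.68, and 36 of the 49 points lie below 0.

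The heterozygous libraries differed among themselves more than the deficient ones did. The spread of log2 CPM was wider in heterozygous cells for 46 of 49 members (93.9%), against 76.3% of all genes tested. The median range over the 5 libraries was 0.95 log2 units in the heterozygous group and 0.52 in the deficient one, and over all genes 1.33 and 0.93.

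Core and regulatory genes did not follow the same heterozygous libraries. Heterozygous 3 was the highest of all 10 libraries for 12 of 23 regulatory members (52.2%) but for 1 of 19 core members, against 19.0% of all genes. It was the lowest of the 10 for 7 core members (36.8%), among them 4 of the 7 alpha ring genes, against 20.5% of all genes and 1 regulatory member. The library labelled heterozygous 4 and heterozygous 5 were the top pair of their genotype for 7 core members (36.8%) and 3 assembly members (42.9%) but for 1 regulatory member (4.35%), against 24.2% of all genes. The median member of the core lay at 0.24, -0.35, -0.15, 0.16 and 0.37 log2 units from its own mean over libraries in heterozygous 1 to 5. The median regulatory member lay at 0.03, -0.22, 0.43, -0.10 and -0.08. So heterozygous 2 was low in both classes, while heterozygous 3 was high in one and low in the other. In the deficient libraries the core ran from -0.30 to 0.11 and the regulatory genes from -0.16 to 0.11. Heterozygous 3 also had the lowest mitochondrial share, and the library labelled heterozygous 4 and heterozygous 5 the most alpha-globin of their genotype. Ovarian stroma markers summed to 23.6 TPM in heterozygous 3, against 127 to 256 TPM in the other libraries. Its pregranulosa and endothelial markers, at 39.5 and 13.0 TPM, lay inside the ranges of the other libraries. The part of any of these in the orders above was not tested.

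**Figure D3:**
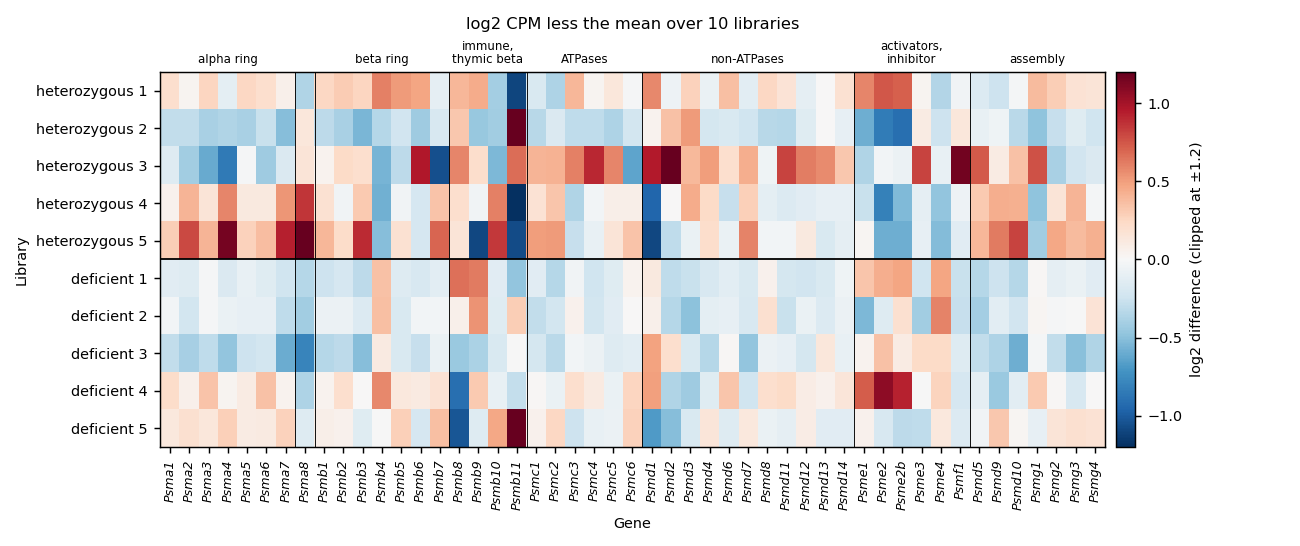
log2 CPM of each member less its mean over the 10 libraries, with libraries in rows and genes in columns by role; red is above and blue below the mean, clipped at 1.2. Heterozygous 3 is red over most ATPases and non-ATPases and blue over much of the alpha ring, and the deficient rows are paler than the heterozygous ones.

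**Figure D4:**
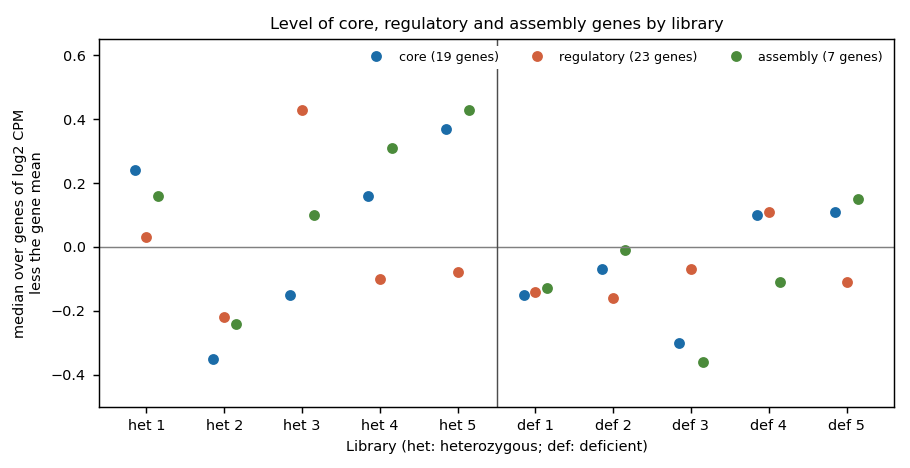
Median over the genes of a class of log2 CPM less the gene's mean, per library. In heterozygous 3 the regulatory genes stand at 0.43 and the core at -0.15, and in heterozygous 5 the core stands at 0.37 and the regulatory genes at -0.08.

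In the core, Psma8 had the largest difference between genotypes of any member in the fit of all 10 libraries. It encodes an alpha subunit that, in mouse testis, takes the place of Psma7 in meiotic cells. Psma8 was at 27.1, 38.4, 38.7, 63.2 and 85.6 CPM in heterozygous 1 to 5, and at 27.4, 26.0, 20.1, 26.9 and 31.2 CPM in deficient 1 to 5. The groups overlapped, since heterozygous 1 lay among the deficient libraries, and the highest values belonged to the library labelled heterozygous 4 and to heterozygous 5. The means were 50.6 ± 23.6 (SD, n = 5) and 26.3 ± 4.02 (SD, n = 5), and the log2 fold change was -0.94 ± 0.28 (SE; edgeR adjusted p = 0.162). The authors' deposited table gave -0.70 with an adjusted p of 0.0335. By litter date the log2 difference was -0.23, -1.11 and -1.56.

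Leaving out 1 library moved the Psma8 result across the threshold. Without heterozygous 1 the fold change was -1.10 (edgeR adjusted p = 0.0428), and without heterozygous 5 it was -0.67 (edgeR adjusted p = 0.290). Without the 3 libraries high in alpha-globin it was -0.47 (edgeR adjusted p = 0.396), and the largest difference of any member there was that of Psmd2, at -0.85. The 9 erythroid markers found, of 10, none at 0 in all libraries, summed to 10.8 to 433 TPM in heterozygous and 19.4 to 327 TPM in deficient libraries. In deficient 5, with 327 TPM of erythroid markers, Psma8 was at 31.2 CPM, the highest value of its genotype, against 20.1 to 27.4 CPM in the other deficient libraries. The pair of libraries with the highest Psma8 values was the top pair of its genotype for 4 of 9 oocyte markers tested. That is 44.4% of them, against 24.2% of all genes. In this pair Nobox, a transcription factor of oocytes, reached 84.8 and 166 CPM against 3.48 to 16.95 CPM elsewhere. The factor Figla reached 283 and 618 CPM there, against 116 to 219 CPM elsewhere. Stra8, which marks entry into meiosis, was lowest in the same pair, at 56.3 and 10.3 CPM. Over the 10 oocyte markers, none at 0 in all libraries, the sum was 3167 to 4668 TPM in heterozygous and 2715 to 3732 TPM in deficient libraries. It was 3655 TPM in the library labelled heterozygous 4 and 4668 TPM in heterozygous 5, against 3891, 3167 and 4264 TPM in heterozygous 1 to 3. So the sum was not high in both libraries of the pair. The part of either marker list in the Psma8 result was not otherwise tested.

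Psma8 is a neighbour of Taf4b. It lies on chromosome 18 at chr18:14706151-14762301 on the plus strand (GRCm38), and its end is 20944 bp from the start of Taf4b on the same strand. Of 11 genes tested within 1000000 bp of Taf4b, Psma8 included, 9 had a log2 fold change below 0, against 51.1% of all genes. An unadjusted p under 0.05 (16.6% of all genes) was found for Psma8 and Kctd1, both lower, and for Gm21055, which overlaps Taf4b and was higher at 1.58. A difference caused by the altered locus and one caused by the loss of the protein cannot be told apart here.

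As a share of Psma7 and Psma8 together, Psma8 took 20.6%, 35.4%, 30.4%, 30.5% and 30.9% of TPM in heterozygous 1 to 5 and 24.5%, 24.3%, 23.3%, 20.7% and 20.5% in deficient 1 to 5. All heterozygous libraries except the first exceeded all deficient ones. The means were 29.6 ± 5.41% and 22.6 ± 1.94% (SD), a difference of -6.92 percentage points. A two-sided exact permutation test gave p = 0.0397, where the smallest possible p is 0.00794, and 0.143 after adjustment over the 4 pairs of specialised and constitutive forms. The difference therefore failed the correction. This test was chosen after the values were seen. The differences by litter date were -3.53, -6.64 and -10.4 points, and without the globin-high libraries -5.60 points (exact permutation p = 0.286, where 3 against 4 libraries cannot go below 0.0571). Psma7 itself, the constitutive partner, had means of 146 ± 58.8 CPM in the heterozygous group and 111 ± 26.0 CPM in the deficient group (log2 fold change -0.39 ± 0.27, SE).

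The 7 constitutive alpha genes had fold changes from -0.39 to 0.03 with a median of -0.11, and none had an unadjusted p under 0.05. Psma6 stood at 361 ± 80.7 CPM (heterozygous) and 357 ± 60.9 CPM (deficient). On the log2 scale Psma4 had the widest heterozygous range of the ring, 1.99 units, from 75.2 CPM in heterozygous 3 to 299 CPM in heterozygous 5, and 97.1 to 165 CPM in the deficient libraries. Its ring partner Psma5 went from 153 to 244 CPM across the heterozygous libraries, so the ring's members did not share 1 spread.

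Among the constitutive beta genes Psmb3 and Psmb4 stood apart from the median of -0.14, in opposite directions. Psmb4, a structural subunit, was at 495, 256, 221, 219 and 228 CPM in heterozygous 1 to 5 and at 416, 417, 351, 486 and 323.5 CPM in deficient 1 to 5. Every deficient library exceeded every heterozygous one except heterozygous 1, which was the highest of all. The log2 fold change was 0.49 ± 0.25 (SE; edgeR adjusted p = 0.343), and 0.79 (edgeR adjusted p = 0.0486) without heterozygous 1. Psmb4 was described because its call turns on that library, a choice made after its values were seen. Psmb3, also structural, averaged 83.4 ± 28.5 CPM in heterozygous cells and 58.5 ± 7.66 CPM in deficient cells (log2 fold change -0.51 ± 0.23, SE; edgeR unadjusted p = 0.0457, adjusted p = 0.290). Its highest library was heterozygous 5, at 127 CPM, without which the fold change was -0.31 (edgeR unadjusted p = 0.158), and without the globin-high libraries it was -0.25. Psmb2, the most abundant member, was at 601 ± 109 and 545 ± 77.4 CPM. Psmb6, with caspase-like activity, reached 1124 CPM in heterozygous 3 against 430.1 to 802 CPM in the other heterozygous libraries.

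The immune and thymic beta genes had low levels, 3 of the 4 under 1 TPM on average. Psmb8, Psmb9 and Psmb10 replace the catalytic subunits in the interferon-induced immunoproteasome, and Psmb11 does so in cortical epithelium of the thymus. Psmb10 was highest of them at a mean of 3.45 TPM, followed by Psmb8 at 0.575, Psmb11 at 0.547 and Psmb9 at 0.432 TPM. Psmb8 shares exonic sequence with an antisense gene over 14.7% of its length and Psmb9 with Tap1 over 5.8%. Macrophages, whose 14 markers summed to 532 to 634 TPM in heterozygous and 302 to 655 TPM in deficient libraries with none at 0, also express the immune forms. Of these markers 12 had a log2 fold change below 0, against 51.1% of all genes. The authors' deposited table called 5 of them, all lower (3.36% of its genes), while edgeR gave 0 an unadjusted p under 0.05. The part of macrophages in these levels was not tested.

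None of the 4 genes had an unadjusted p under 0.05. Psmb8 spanned 1.69 to 2.29 CPM in the heterozygous and 0.748 to 2.42 CPM in the deficient group (log2 fold change -0.53 ± 0.36, SE). Psmb9 was at 0.595 to 1.73 and 0.977 to 1.95 CPM (0.33 ± 0.36). Psmb10 was at 2.98 to 7.79 and 3.82 to 5.98 CPM (-0.13 ± 0.33). Psmb11 was at 0.520 to 4.42 and 1.12 to 6.29 CPM (0.45 ± 0.65). In all 4 the ranges overlapped. The share of the immune form in its pair, in TPM, was 4.50 ± 1.29% and 3.30 ± 1.90% for Psmb8 with Psmb5, 0.0949 ± 0.0290% and 0.143 ± 0.0382% for Psmb9 with Psmb6, and 13.4 ± 2.73% and 12.0 ± 1.01% for Psmb10 with Psmb7 (SD, n = 5, heterozygous first). The adjusted exact permutation p was 0.341, 0.143 and 0.341. Since the TPM of Psmb5 was low against its counts, its pair is given in CPM too, where the shares were 2.07 ± 0.610% and 1.51 ± 0.885%. CPM is not scaled by length, and Psmb8 has 3381 exonic bases against 899 for Psmb5, which raises this share. In CPM per kb the means over all libraries were 0.483 for Psmb8 and 105 for Psmb5.

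In the cap, 5 of 6 ATPase genes and 9 of 11 non-ATPase genes had a fold change below 0, with medians of -0.26 and -0.16. The ATPases Psmc1 to Psmc6 form the ring that unfolds substrates. None had an unadjusted p under 0.05, and their fold changes ran from -0.31 for Psmc2 to 0.16 for Psmc6. Psmc2 was at 163, 187, 281.5, 265 and 299.5 CPM in heterozygous 1 to 5 and at 165, 180.0, 168, 199.5 and 249.6 CPM in deficient 1 to 5. Its heterozygous libraries 3 to 5 lay above all deficient ones, and heterozygous 1 and 2 lay below the highest of them. Psmc5, the most abundant of the ring in TPM, had means of 164 ± 38.4 CPM in the heterozygous group and 136.5 ± 3.83 CPM in the deficient group (log2 fold change -0.26 ± 0.18, SE). Psmc6 was the exception in heterozygous 3, where it had its lowest value, 168 CPM, while Psmc3, Psmc4 and Psmc5 had their highest, 485, 399.8 and 222 CPM.

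Psmd3, a lid subunit of the cap, was lower in all 5 deficient libraries than in any heterozygous one. It was at 129, 151.5, 139.5, 145 and 101 CPM in heterozygous 1 to 5 and at 88.5, 75.4, 93.8, 79.3 and 93.6 CPM in deficient 1 to 5. The closest values were heterozygous 5 and deficient 3. Of all genes 3.53% had groups that did not overlap, 1.94% with higher and 1.6% with lower deficient values, and among the members these were Psme4, higher, and Psmd3 and Psmf1, lower. The means of Psmd3 were 133 ± 19.8 and 86.1 ± 8.41 CPM (SD, n = 5), and the log2 fold change was -0.63 ± 0.17 (SE; edgeR adjusted p = 0.145). The authors' deposited table gave -0.64 with an adjusted p of 0.0135, DESeq2 an adjusted p of 0.0282 and limma voom one of 0.0414. By litter date the log2 difference was -0.66, -0.76 and -0.23, and without the globin-high libraries it was -0.73. Without the library labelled heterozygous 4 it was -0.59 (edgeR adjusted p = 0.333). Psmd3 lies at chr11:98682554-98695979 on the plus strand, where 0.3% of its exonic length overlaps an antisense gene.

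Psmd2, a scaffold of the cap that receives ubiquitin-like proteins, was the most abundant non-ATPase. It was at 1003, 1341, 2634, 1051 and 846 CPM in heterozygous 1 to 5 and at 849, 828, 1208, 815 and 734 CPM in deficient 1 to 5. Heterozygous 3 was more than any other library by a wide margin. The log2 fold change was -0.63 ± 0.31 (SE; edgeR adjusted p = 0.319), and -0.27 without heterozygous 3. Psmd1, the other large scaffold of the cap, was low in the globin-high libraries. It was at 919, 637, 1193, 318 and 289.7 CPM in heterozygous 1 to 5 and at 670.0, 645, 862, 868 and 385 CPM in deficient 1 to 5. The library labelled heterozygous 4, heterozygous 5 and deficient 5 were the lowest of the 10, and Stra8 was also lowest in them, at 56.3, 10.3 and 156 CPM against 221 to 965 CPM. Its mean did not follow genotype, at 671 ± 389 and 686 ± 198 CPM, and neither the globin nor the Stra8 relation was tested.

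The other non-ATPase genes differed less. The deubiquitinase Psmd14 stood at 349 ± 49.9 CPM (heterozygous) and 328 ± 26.1 CPM (deficient), with ranges of 312 to 421.5 and 306 to 373 CPM. The ubiquitin receptor Psmd4 was at 239 ± 47.0 and 197.5 ± 24.8 CPM. The lid subunits Psmd6, Psmd7, Psmd8, Psmd11, Psmd12 and Psmd13 had fold changes from -0.41 for Psmd7 to 0.11 for Psmd8. For Psmd11, Psmd12 and Psmd13 the highest library was heterozygous 3, at 371.5, 408 and 265 CPM.

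The activators and the inhibitor of the core had the only class median above 0 besides the immune forms, at 0.37. Psme2 and Psme2b, which share sequence, both count in this median. The summed TPM of the class went the other way, at 154 ± 23.8 and 134 ± 14.7 (SD, n = 5, heterozygous first). Psme4 carried the clearest separation of the genotypes. Psme4 encodes a large single-chain activator that, in mouse testis, binds acetylated histones. It was at 50.1, 53.6, 59.7, 45.8 and 44.3 CPM in heterozygous 1 to 5 and at 88.4, 96.0, 74.8, 76.5 and 69.6 CPM in deficient 1 to 5. All deficient libraries lay above all heterozygous ones. The means were 50.7 ± 6.20 and 81.1 ± 10.8 CPM (SD, n = 5), and the log2 fold change was 0.68 ± 0.16 (SE; edgeR adjusted p = 0.130). The authors' deposited table gave 0.58 with an adjusted p of 0.0125, DESeq2 an adjusted p of 0.0255 and limma voom one of 0.0378.

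The Psme4 difference was of like size at each litter date, 0.77, 0.69 and 0.72 log2 units. It was 0.62 without the globin-high libraries and 0.64 (edgeR adjusted p = 0.333) without the library labelled heterozygous 4. Its transcripts share no 50-base word with another gene. The 250 bases before its start are shown because it is the member with the smallest p, with the GC box in capitals.
Psme4 (chr11:30771525-30771774, plus strand): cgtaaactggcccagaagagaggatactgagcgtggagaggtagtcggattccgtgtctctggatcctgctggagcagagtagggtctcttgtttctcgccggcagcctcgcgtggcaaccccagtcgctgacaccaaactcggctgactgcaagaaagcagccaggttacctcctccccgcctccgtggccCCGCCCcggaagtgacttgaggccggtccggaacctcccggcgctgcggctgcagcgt
This window held the GC box in the reverse orientation and none of the other 4 motifs.

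**Figure D5:**
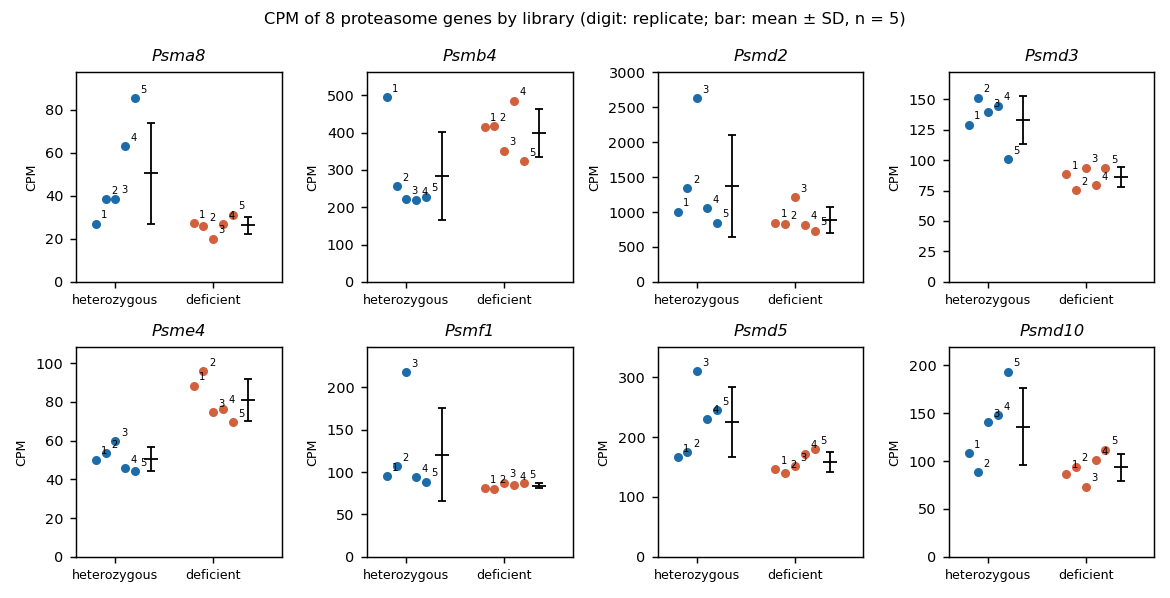
CPM of 8 members in each library, numbered by replicate, with the mean ± SD of 5 libraries beside each group. Psme4 is higher in all deficient than in all heterozygous libraries (69.6 and above against 59.7 and below), Psmd3 is lower in all deficient libraries, and in Psmd2 and Psmf1 heterozygous 3 stands far above the rest.

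Psmf1, the inhibitor that binds the core, was at 94.9, 107, 218, 93.7 and 88.8 CPM in heterozygous 1 to 5 and at 81.1, 80.3, 87.4, 84.6 and 87.1 CPM in deficient 1 to 5. The groups did not overlap, but heterozygous 5 lay within 2 CPM of the highest deficient libraries and heterozygous 3 stood alone. The log2 fold change was -0.52 ± 0.24 (SE; edgeR adjusted p = 0.307), and -0.20 without heterozygous 3. Psme1 and Psme2, the interferon-induced pair of activators, averaged 21.3 ± 7.28 and 21.5 ± 11.3 CPM in the heterozygous and 25.2 ± 7.86 and 31.5 ± 12.1 CPM in the deficient group. Their fold changes were 0.24 ± 0.27 and 0.55 ± 0.34 (SE). Heterozygous 1 and deficient 4 were the highest library of their genotype for both genes. Psme2b shares 69.3% of its 50-base words with other genes, Psme2 among them. It followed the same libraries, with 13.5 CPM in heterozygous 1 and 15.5 CPM in deficient 4. Psme3, a nuclear activator, averaged 229 ± 70.2 and 184 ± 34.1 CPM, with a log2 fold change of -0.32 ± 0.22 (SE), and of -0.12 without heterozygous 3.

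Of the 7 assembly genes 6 had a fold change below 0, against 51.1% of all genes. Psmd5 and Psmd10, chaperones of the ATPase ring, were lower at an unadjusted p under 0.05, against 9.13% of all genes. Psmd10 was at 108, 88.2, 141, 148 and 193.5 CPM in heterozygous 1 to 5 and at 86.9, 94.0, 73.4, 101 and 112 CPM in deficient 1 to 5. Heterozygous 3 to 5 exceeded every deficient library and the first pair did not. The log2 fold change was -0.54 ± 0.22 (SE; edgeR adjusted p = 0.249), and by litter date the difference was -0.17, -0.80 and -0.86. Without heterozygous 5 it was -0.38 (edgeR unadjusted p = 0.0925), and without the globin-high libraries -0.34 (edgeR unadjusted p = 0.129). Psmd5 was at 166, 175, 310.4, 230.5 and 245 CPM in heterozygous 1 to 5 and at 147, 139.9, 152, 172 and 180.2 CPM in deficient 1 to 5. Its groups overlapped through the first heterozygous pair only. The log2 fold change was -0.51 ± 0.20 (SE; edgeR adjusted p = 0.239). Without heterozygous 3 it was -0.38 (edgeR unadjusted p = 0.0536), and without the second litter date -0.23 (edgeR unadjusted p = 0.376).

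Deficient 5 was the highest deficient library for 6 of the 7 assembly genes, against 26.8% of all genes. The same held for 22 of all 49 members (44.9%), with 9 of 19 core and 7 of 23 regulatory genes, among the latter 4 of 6 ATPases. The third chaperone of the ATPase ring, Psmd9, was at 49.1 ± 12.2 and 38.4 ± 8.72 CPM, and 25.5% of its exonic length overlaps an antisense gene. Psmg1 and Psmg2 act as a pair on the alpha ring, as do Psmg3 and Psmg4. Psmg1 was the most abundant at 303 TPM, and it was at 259 ± 111 and 259 ± 30.2 CPM, ranging from 179 to 424 CPM in the heterozygous group and from 233 to 311 CPM in the deficient one. Its partner Psmg2 was at 157 ± 39.0 and 144 ± 16.3 CPM. Psmg3 was at 39.4 ± 7.83 and 33.4 ± 5.76 CPM, and Psmg4 at 94.2 ± 18.2 and 89.9 ± 13.4 CPM. All 4 ranges overlapped. The highest library of Psmg1 was heterozygous 3, and that of Psmg2 and Psmg4 was heterozygous 5.
The 250 bases before the start of Psmd10 are shown because it has the largest difference of the assembly genes and holds CCAAT and GC boxes, in capitals.
Psmd10 (chrX:140956712-140956961, minus strand): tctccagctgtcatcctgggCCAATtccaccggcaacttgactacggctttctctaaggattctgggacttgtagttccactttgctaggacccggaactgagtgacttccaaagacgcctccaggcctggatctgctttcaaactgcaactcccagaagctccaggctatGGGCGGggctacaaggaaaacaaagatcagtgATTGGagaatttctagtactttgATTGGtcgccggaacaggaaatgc
It was the only assembly member with a CCAAT box in the window.

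Among genes that work with the proteasome but do not carry its name, none was called by edgeR. Over all genes 7.45% were higher and 9.13% lower at an unadjusted p under 0.05, the share against which each count in the lists is to be read. Of 17 partner genes tested, 10 had a fold change above 0, and 3 were higher and 1 lower at that p. The authors' deposited table, which called 6.55% of its genes, called 2 of the partner genes, Ube3c and Akirin2, both higher. Ube3c, a ligase that extends ubiquitin chains at the proteasome, averaged 73.3 ± 35.8 CPM in heterozygous cells and 131 ± 37.6 CPM in deficient cells (log2 fold change 0.83 ± 0.32, SE). Akirin2, which brings proteasomes into the nucleus, was at 26.4 ± 21.1 and 56.0 ± 17.5 CPM (1.08 ± 0.44). Of 14 genes that control proteasome transcription, 7 lay above 0, with 2 higher and 2 lower at an unadjusted p under 0.05. The authors' deposited table called 2 of them, Mafg, higher, and Nfyb, lower. Nfe2l1 was at 88.1 ± 20.5 and 90.2 ± 29.4 CPM. Mafg, a small partner of the Nfe2l factors, was at 49.1 ± 17.5 and 93.6 ± 14.9 CPM (0.93 ± 0.24, SE; edgeR adjusted p = 0.145), and Nfyb, a subunit of NF-Y, at 41.7 ± 22.1 and 18.7 ± 7.53 CPM (-1.15 ± 0.37). All SD are over 5 libraries.

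Of 12 genes of ubiquitin, its activating enzymes and the p97 complex, 2 were higher and 2 lower at an unadjusted p under 0.05, and the authors' deposited table called 3, Ubb among them. The polyubiquitin gene Ubb had means of 4316 ± 2146 CPM in the heterozygous group and 2258 ± 289.9 CPM in the deficient group (log2 fold change -0.93 ± 0.32, SE). Of 15 ubiquitin and SUMO pathway genes of meiosis, 2 were higher and 1 lower at an unadjusted p under 0.05 and the authors' deposited table called 1, with the cullin Cul3 at 128 ± 17.8 and 201 ± 47.9 CPM (0.66 ± 0.20) and the substrate receptor Btrc at 166 ± 46.5 and 109.8 ± 13.6 CPM (-0.60 ± 0.20). Of 14 antigen presentation genes, 1 was higher and 0 lower at that p and the authors' deposited table called 0, the 1 being the peptide transporter Tap1 at 1.86 ± 0.373 and 3.30 ± 0.943 CPM (0.82 ± 0.30). The next by p was its partner Tapbp, at 18.6 ± 3.59 and 14.6 ± 2.53 CPM (-0.35 ± 0.21). The lists were chosen with earlier results of these data known.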

How the data were processed

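Per the submitters' processing notes, reads were trimmed with Trim Galore 0.5.0 and aligned to GRCm38 with HISAT2 2.1.0. The authors then deposited whole-number counts from featureCounts (Subread 1.6.2), and TPM estimated by StringTie 1.3.3b. How strand and multi-mapped reads were treated is not given in the sources used, which leaves members that overlap or resemble other genes uncertain. The authors also deposited a DESeq2 table with log2 fold changes, standard errors, a score (the Wald statistic), mean signal (normalized counts), p-values and adjusted p-values, per the file headers. Taf4b, lower in the deficient cells, gave its sign. Each column was matched to a library by genotype and replicate number, and 0 columns stayed unmatched.

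Counts were fitted with R 4.3.3 and edgeR 4.0.16 (quasi-likelihood test, genotype only, TMM scaling, edgeR's expression filter, Benjamini-Hochberg over the 19244 genes, called under 0.05). The 382 genes without a symbol, 0.0632% to 0.0945% of counts, stayed in the counts that were filtered and fitted, and could not be picked by name. The SE of a fold change is its size over the square root of F. CPM use TMM-scaled library sizes, and log2 CPM of single libraries a prior count of 2. CPM per kb divides by the exonic length in GENCODE vM21, with which all 49 members' coordinates matched. Shares of isoform pairs were tested by exact permutation. DESeq2 1.42.0, limma 3.58.1 (voom with quality weights, and log2(TPM + 1) or log2(TPM + 0.1) of genes over 1 TPM in 5 libraries), other scaling and filters, litter date, replicate number and left-out libraries were alternatives. The procedure was tested on simulated counts. There edgeR called 22% of 100 genes changed 2-fold, 95% of 100 changed 4-fold and 5 of 18560 unchanged genes.

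Members described by library were those called by any table, the smallest p and highest TPM of each class, the specialised forms and the assembly chaperones, with Psmb4 added after its values were seen, and single values of other members given to describe their class. Members and lists were chosen with earlier results of these data known. A pathway gene picked by the rule for description is not reported here.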

Additional observations from a re-analysis of the deposited data

Results flagged for a closer look

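A library far from the others of its genotype was looked for in the 25 members that the rule for description picks, in 50 groups of 5 libraries, of which chance sets apart about 1 in 20 groups. It was found in 3. Psmf1, the inhibitor of the core, was at 217.6 CPM in heterozygous 3 against 88.8 to 107 CPM in the other heterozygous libraries. Psme3, the nuclear activator, was at 353.1 CPM in heterozygous 3 against 186 to 215 CPM. Heterozygous 3 had the lowest mitochondrial share of counts, and its part in these values was not tested. Psmb10, the immune form of Psmb7, reached 5.98 CPM in deficient 5, while the rest of that genotype lay at 3.82 to 4.06 CPM. Deficient 5 was also the deficient library with the most alpha-globin, at 589.5 CPM, and its part was not tested.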

How the results depend on the processing

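The number of genes called was 0 with edgeR and 251 with no filter on low counts, 643 with DESeq2, 510 with limma voom and 0 to 606 when 1 library was left out, and the members called were 2 with DESeq2, 2 with voom and 0 to 2 without 1 library, the highest of each without heterozygous 1. The cause of these differences was not tested. With the replicate block 1 gene was called and 0 members. The numbers do not pair the libraries throughout: numbers 1, 3 and 5 also share a litter date across genotypes and numbers 2 and 4 do not, and the correlations of numbers 1 to 5 were 0.169, 0.0346, 0.118, -0.262 and 0.593, and 1 of 5 correlated best with its own number.

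The medians of all members and of the core, regulatory and assembly genes stayed at or below 0 under the 24 alternatives, from -0.25 to -0.04 over all members, and finer classes were not run. The median over all genes moved from -0.02 to 0.12 with no filter and with DESeq2 without a filter, and to -0.10 with log2(TPM + 1) and -0.11 with log2(TPM + 0.1). Of 25 described members 19 kept their sign in each of their alternatives, 24 for most and 22 for Psmb8 and Psmb9, which the filtered TPM fits leave out, and 563 of 594 values did. Psmg1, at 0.00, was -0.02 with DESeq2-type size factors in edgeR, with no filter and in the 3 TPM fits, -0.03 with DESeq2, -0.01 without the first and -0.15 without the third litter date, -0.22 without the globin-high libraries and -0.11 to 0.25 without 1 library. Without the globin-high libraries Psma6 was at 0.13, Psmb10 at 0.32, Psmb11 at -0.81, Psmg2 at 0.00 and Psmg4 at 0.01. Psma6 was at 0.00 without the first litter date and Psmb11 at -0.43 without the third. Without 1 library Psma6 ran from -0.12 to 0.08, Psmb10 from -0.29 to 0.11, Psmb11 from -0.29 to 1.12 and Psmg4 from -0.14 to 0.04. The Psma8 share, its alternatives chosen after the data were seen, differed by -9.15 to -5.47 points without 1 library and by -6.29 points from CPM.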
